A study of Mus musculus with 12 samples.

Results

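The genes of mitosis and the mitotic spindle were followed through bulk RNA sequencing of mouse ear skin. The group holds 51 genes out of 24532 genes in the deposited table. They were chosen by name for their roles in cell division, with earlier results of these data known. All 51 were found in the table by gene symbol, and all 51 passed the filter on low counts together with 16466 genes in all. The 12 libraries fall into 4 groups of 3, set by housing and by what was put on the skin. Specific-pathogen-free (SPF) mice carry a normal flora without listed pathogens, and germ-free (GF) mice carry no microbes. Skin of each housing received ethanol, the vehicle, or MC903, which is calcipotriol, a vitamin D analogue used to produce inflammation of the atopic dermatitis type in mouse skin. The labels give 5 applications, in wording that does not settle the schedule, and name no age, sex, transgene or deletion. The strain is C57BL/6 in 9 libraries, and in 3 GF libraries (MC903 4, ethanol 5 and MC903 5) the last digit of the strain label runs on to 7, 8 and 9. SPF libraries are numbered 1, 2 and 3 and GF libraries 1, 4 and 5. The labels do not say that libraries came from separate mice or that tissue was not pooled, and p-values therefore reflect only how far these libraries scatter, which may be technical.

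A cell that has copied its DNA enters mitosis when cyclin-dependent kinase 1 binds its cyclins, after which condensin packs the chromosomes, motor proteins and kinases build a bipolar spindle, and kinetochores tie the centromeres to it. The spindle checkpoint holds the cell until every chromosome is attached. The anaphase-promoting complex then marks securin and cyclin B for destruction, separase cuts the cohesin rings, and a contractile ring divides the cell. In the epidermis most dividing cells lie in the basal layer, and hair follicles in growth add the fast-dividing hair matrix. Many of these genes are read only late in the cycle, through promoters that carry a cell cycle homology region, CHR, often next to CCAAT boxes bound by NF-Y.

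The sequences of 5 promoters are shown because these letters recur among the 51 genes. They were picked for holding both kinds of letters before the start and outside exons, and not by expression. Of 27 genes that lead their role, 6 met this, and the first of each role is printed. The promoter table, from RefSeq on GRCm38.p6, held 43 of the 51 genes in 45 windows of 300 bases, from 250 bases before to 50 after an annotated start. CHR letters were searched as TTTGAA or TTTAAA and CCAAT box letters as CCAAT, each on both strands, and overlaps between matches were not removed. Each sequence runs 5′ to 3′ on the strand of its gene and stops at the first base of an annotated exon or gene span, with matches of either kind in capitals. Mki67, proliferation antigen Ki-67, is at chr7:135716451-135716600, minus strand. Cdk1, the mitotic kinase itself, is at chr10:69352939-69353125, minus strand. Plk1, polo-like kinase, is at chr7:122159402-122159434, plus strand, where a nearby exon leaves a short stretch. Cdc20, the activator of the anaphase-promoting complex, is at chr4:118437353-118437502, minus strand. Kif11, the motor that pushes spindle poles apart, is at chr19:37376232-37376381, plus strand.
Mki67: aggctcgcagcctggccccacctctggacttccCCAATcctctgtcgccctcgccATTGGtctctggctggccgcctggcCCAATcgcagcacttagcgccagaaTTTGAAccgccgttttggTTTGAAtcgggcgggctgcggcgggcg
Cdk1: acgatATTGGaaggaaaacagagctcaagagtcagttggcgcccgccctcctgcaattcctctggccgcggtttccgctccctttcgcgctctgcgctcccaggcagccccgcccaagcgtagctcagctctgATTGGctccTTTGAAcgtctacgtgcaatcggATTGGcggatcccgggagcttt
Plk1: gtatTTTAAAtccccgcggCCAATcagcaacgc
Cdc20: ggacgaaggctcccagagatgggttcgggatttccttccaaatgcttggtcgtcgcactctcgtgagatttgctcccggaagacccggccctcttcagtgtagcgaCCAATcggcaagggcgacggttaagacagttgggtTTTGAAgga
Kif11: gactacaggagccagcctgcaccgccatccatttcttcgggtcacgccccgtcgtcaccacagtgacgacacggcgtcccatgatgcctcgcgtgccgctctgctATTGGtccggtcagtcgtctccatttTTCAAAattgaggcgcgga

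CHR letters were found in 36 of the 45 member windows (80%) and in 20.4% of 16261 windows of tested genes, or 27.6% of all 32851 windows of that length. Counting only bases before the start, the CHR shares were 51.1% and 18.7%. TTTGAA alone was in 73.3% of member windows and in 12.7% of windows of tested genes. CCAAT letters were in 33 member windows (73.3%), against 37.1% of windows of tested genes and 37.4% of all windows. Both kinds stood in 31 member windows (68.9%), against 8.0% of windows of tested genes. Of 54 CHR matches, 37 lay within 50 bases of the annotated start, and 30 members had such a match. As the Mki67 and Cdk1 lines show, CCAAT letters often came in repeats, and 22 members held at least 2 matches. These counts of matches take each window separately. Sites in the overlapping windows of Ect2 and of Prc1 are therefore counted more than once, and Prc1 is among the 22 through a single site. Neither nearness to the start nor repeats were counted over the windows of other genes. These matches describe letters in the windows and do not show that a factor was bound there.

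Library totals lay between 36358294 and 48225425 estimated counts. No member was at 0 in any library. Across libraries, members ran from 156 to 8065 estimated counts, with medians of 562 with ethanol and 1313 with MC903 in SPF skin and of 571 and 1295 in GF skin. Levels of a gene are given below as CPM, counts scaled to a common library size, on library sizes scaled by edgeR's TMM factors, in library order, and changes as log2 values with their standard error (SE). Adjusted p-values are Benjamini-Hochberg values from edgeR's quasi-likelihood test over all 16466 genes, with a threshold of 0.05. TMM factors averaged 1.23 and 0.825 with ethanol and MC903 in SPF skin, and 1.19 and 0.831 in GF skin.

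Some libraries stood apart within their group. GF ethanol 4 was the highest of its group for 48 of 51 members (94.1%, against 36.3% of tested genes) and GF ethanol 5 the lowest for 45 (88.2%, against 32.3%). Of 85 other mitosis genes, 56 were highest in GF ethanol 4 and 60 lowest in GF ethanol 5, and of 47 DNA replication genes 33 and 30. SPF MC903 1 was the highest of its group for 43 members (84.3%, against 30% of tested genes), and SPF MC903 3 the lowest for 33 (64.7%, against 36.6%). Summed CPM of 7 basal keratinocyte markers was 13300 in GF ethanol 1, 15200 in GF ethanol 4 and 14000 in GF ethanol 5, and that of 6 fibroblast markers was 9300, 9610 and 7920. The mean log2(CPM + 0.1) of the 7 basal markers was 9.92, 10 and 9.99 in these libraries. The part of these cell types in the ranking was not tested. Results that rest on these libraries are given below with and without them.

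Mitosis and spindle genes rose with MC903 in both housings. Summed over the 51 genes, levels were 769 to 822 CPM in SPF ethanol skin and 2230 to 2680 CPM in SPF MC903 skin, and 681 to 926 CPM and 2610 to 2670 CPM in GF skin. Their share of all counts went from 0.0974% ± 0.00432 to 0.2% ± 0.0206 in SPF skin and from 0.0931% ± 0.0131 to 0.219% ± 0.00257 in GF skin (SD, n = 3). In SPF skin 49 of 51 members were higher (96.1%), where 35% of all tested genes were higher, and 43 were at least 2-fold higher, where 15.6% of tested genes were. In GF skin all 51 members were higher, where 33.4% of tested genes were, and 43 were at least 2-fold higher, where 12.2% were. The members' median log2 change was 1.66 in SPF skin (3.15-fold) and 1.75 in GF skin (3.36-fold), beside medians of -0.10 and -0.07 over all tested genes. None of the 51 was lower in either housing, where 38.8% and 35.1% of all tested genes were lower. In bulk tissue, more dividing cells and more of these transcripts per dividing cell cannot be told apart.

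The 2 members that did not pass the test in SPF skin were Espl1 and Pttg1. For the 49 others the SPF MC903 libraries all lay above the SPF ethanol libraries, and in GF skin the groups did not overlap for any of the 51, while such a rise held for 35.8% and 35.6% of all tested genes. Without GF ethanol 4 the GF median became 1.88 with 51 members higher, and without GF ethanol 5 it became 1.64 with 50 higher. Without SPF MC903 1 the SPF median became 1.62 with 49 higher, and without SPF MC903 3 it became 1.71 with 49 higher. On library totals without TMM scaling, the median of all tested genes fell to -0.68 in SPF and -0.58 in GF skin. The members' median fell with it, to 1.08 in SPF and 1.24 in GF skin, so the size of the rise depends on the scaling. On these totals 44 members were higher and 2 lower in SPF skin and 45 higher and 0 lower in GF skin. That scaling also split all tested genes in SPF skin into 3127 higher and 10106 lower in place of 5755 and 6394, and in GF skin into 2795 and 9697 in place of 5497 and 5777. Members of small change, named below, are those whose calls it ended.

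**Figure D1:**
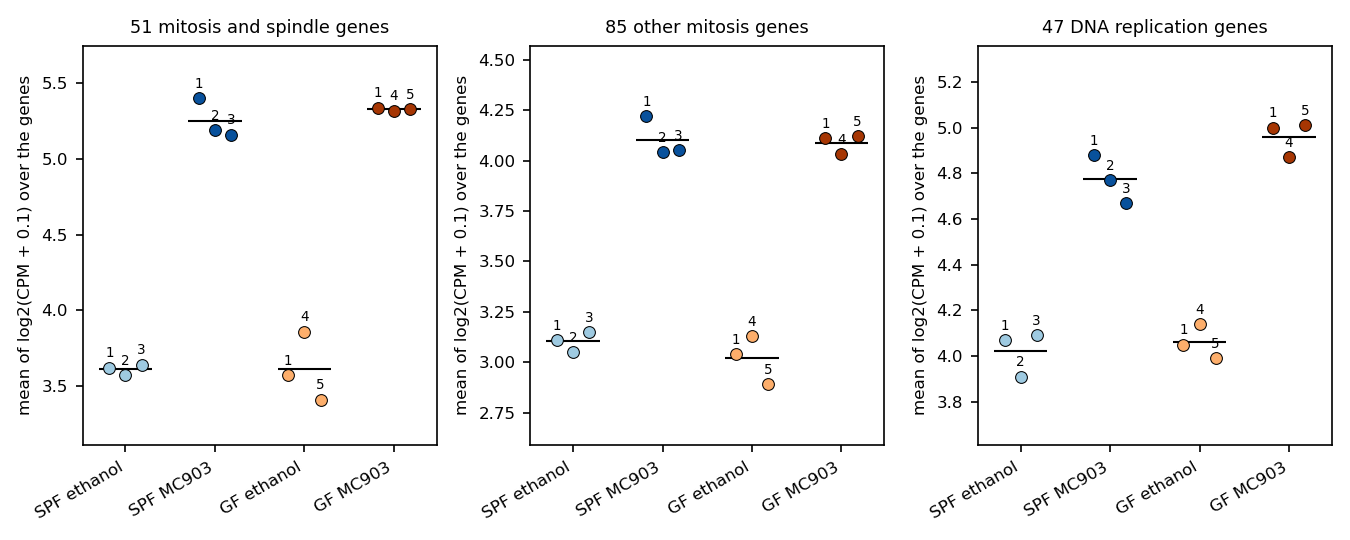
Mean log2(CPM + 0.1) in each library (y axes) by group (x axes) for the 51 mitosis and spindle genes, 85 other mitosis genes and 47 DNA replication genes, with numbered points for libraries and lines for group means. For the 51 genes, group means were 3.61 with ethanol and 5.25 with MC903 in SPF skin, and 3.62 and 5.33 in GF skin, and the GF ethanol libraries were the most spread.

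**Figure D2:**
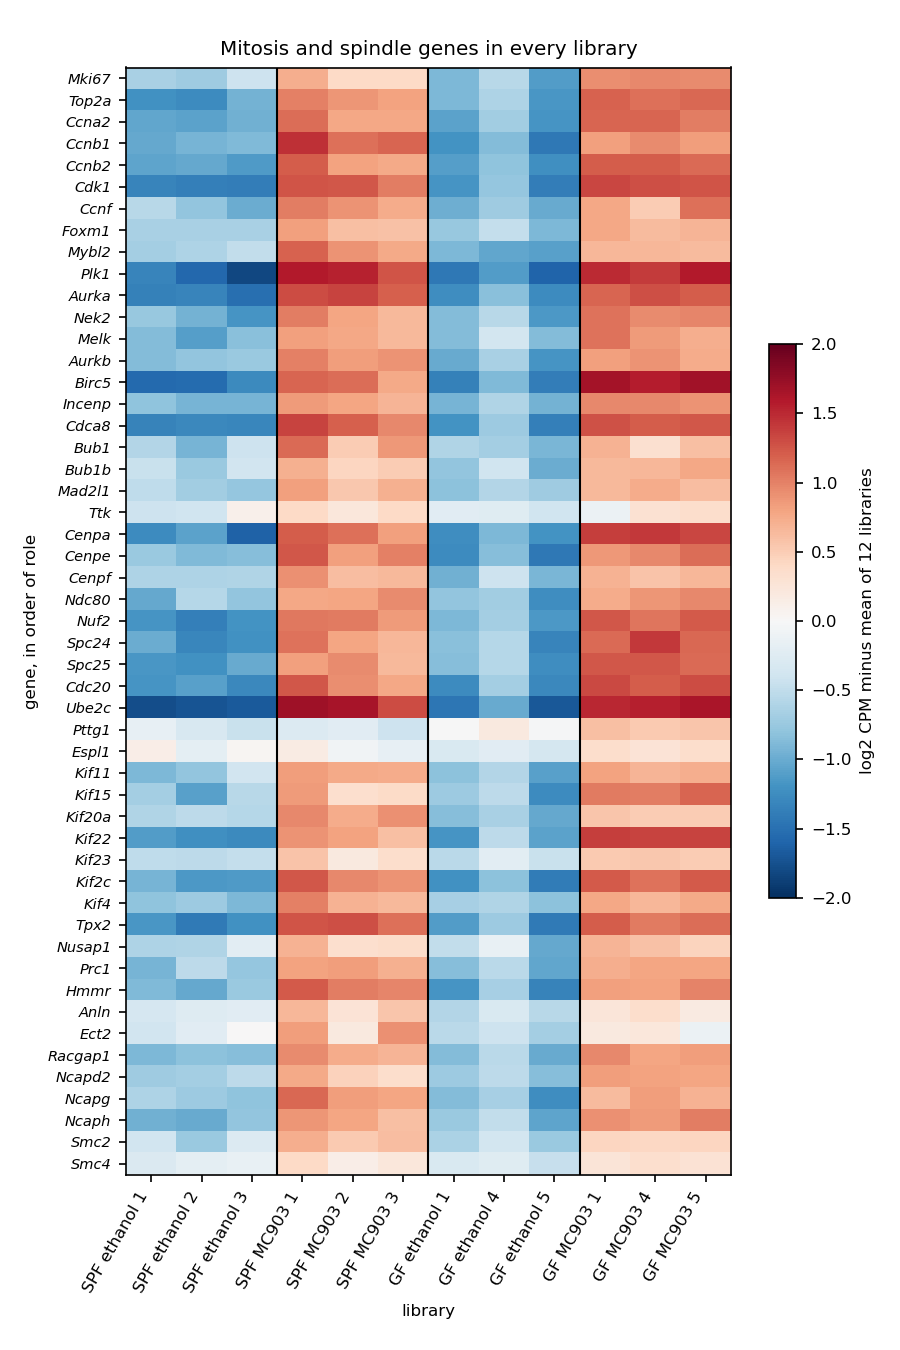
Log2 CPM of each member minus its mean over 12 libraries (color), with genes in order of role (y axis) and libraries by group (x axis). The MC903 libraries of both housings are the high columns, with Espl1 and Pttg1 high in GF MC903 libraries but not in SPF MC903 libraries.

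The 2 classical markers of proliferation rose in both housings. Mki67, which coats mitotic chromosomes, stood at 64.3, 61.6 and 75.5 CPM in SPF ethanol, 167, 133 and 132 in SPF MC903, 53.8, 68.7 and 46.3 in GF ethanol, and 191, 196 and 193 in GF MC903 libraries. The GF MC903 libraries were the highest 3 of the 12, and the ethanol groups overlapped. Its log2 change was 1.10 (SE 0.14, adjusted p = 9.7e-06) in SPF and 1.78 (SE 0.14, adjusted p = 2.6e-07) in GF skin. Top2a, the topoisomerase that untangles sister chromatids, stood at 43.1, 41.9 and 52.1 CPM in SPF ethanol, 201, 184 and 174 in SPF MC903, 53.5, 65.2 and 44.6 in GF ethanol, and 228, 214 and 221 in GF MC903 libraries. All MC903 libraries lay far above all ethanol libraries. Its log2 changes were 2.03 and 2.02.

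Cdk1, the genes of cyclins A2, B1 and B2, and Ccnf all rose at least 2-fold in both housings, with median log2 changes of 2.02 in SPF and 2.08 in GF skin. Cdk1 stood at 16, 15.4 and 15.3 CPM in SPF ethanol, 95.5, 94.1 and 81.4 in SPF MC903, 17.7, 23.4 and 15.3 in GF ethanol, and 101, 97.4 and 95.2 in GF MC903 libraries. Each treated library lay well above every vehicle library. The log2 change of Cdk1 was 2.53 (SE 0.13, adjusted p = 4.5e-09) in SPF and 2.38 (SE 0.13, adjusted p = 2e-08) in GF skin. Ccnb1, cyclin B1, which brings the kinase into the nucleus, stood at 16.1, 17.2 and 17.6 CPM in SPF ethanol, 89.7, 70.3 and 73 in SPF MC903, 14.2, 17.8 and 12.1 in GF ethanol, and 57.8, 62.5 and 58.3 in GF MC903 libraries. The SPF MC903 libraries were the highest. Ccnb1 changed by 2.2 and 2.02 in log2, and transcripts of Ccnb1-ps and of 3 other loci match it at 96.606% to 99.223% identity, so that its reads could be shared with them. Ccna2, cyclin A2, which acts from S phase into early mitosis, stood at 20.4, 20 and 21.5 CPM in SPF ethanol, 90.9, 71.4 and 71.6 in SPF MC903, 19.9, 25.7 and 18.5 in GF ethanol, and 93.5, 93.5 and 85.1 in GF MC903 libraries. The MC903 groups overlapped, as did the ethanol groups. Its log2 changes were 1.92 and 2.08, while 12.5% of its exonic bases lie opposite Exosc9. Ccnb2 changed by 2.02 and 2.22 and Ccnf, cyclin F, which is a subunit of a ubiquitin ligase and does not activate Cdk1, by 1.66 and 1.70.

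Both transcription factors that drive the late cell cycle program rose. Foxm1 stood at 18.2, 18.2 and 18.1 CPM in SPF ethanol, 50.1, 42.9 and 42.4 in SPF MC903, 16.7, 20.3 and 15.3 in GF ethanol, and 48.4, 44 and 45.3 in GF MC903 libraries. Housing groups overlapped with either treatment. Foxm1 changed by 1.31 (SE 0.10, adjusted p = 1.8e-07) and 1.40 (SE 0.10, adjusted p = 2e-07) in log2. Mybl2, B-Myb, a partner of the MuvB complex, stood at 8.36, 8.7 and 9.44 CPM in SPF ethanol, 30.4, 24.8 and 22.6 in SPF MC903, 7.2, 6.53 and 6.26 in GF ethanol, and 21.1, 21.2 and 20.8 in GF MC903 libraries. With either treatment every GF library lay below every SPF library. Its log2 responses were 1.55 and 1.66, and Gm3320 matches it at 99.73% identity over 742 bases.

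The mitotic kinases held some of the steepest rises, with median log2 changes of 2.23 in SPF and 2.09 in GF skin. Plk1, which acts from centrosome maturation to cytokinesis, stood at 10, 8.45 and 7.12 CPM in SPF ethanol, 75.3, 72.7 and 60.1 in SPF MC903, 9.34, 11.6 and 8.25 in GF ethanol, and 70.6, 66.2 and 75.1 in GF MC903 libraries. The treated groups overlapped each other and lay well clear of the vehicle groups. Plk1 changed by 3.02 (SE 0.15, adjusted p = 3.6e-09) and 2.86 (SE 0.15, adjusted p = 1.6e-08) in log2, 2nd among members in both housings. Aurka, the kinase of spindle poles, stood at 5.68, 5.82 and 5.11 CPM in SPF ethanol, 35.7, 36.9 and 33.2 in SPF MC903, 6.1, 8.11 and 6.05 in GF ethanol, and 32.6, 35.3 and 33.4 in GF MC903 libraries. Its GF ethanol libraries lay above its SPF ethanol libraries, and its MC903 groups overlapped. Aurka changed by 2.67 (SE 0.11) and 2.32 (SE 0.11), and the difference of -0.35 between housings did not pass the test (SE 0.15, adjusted p = 0.15). Nek2, a centrosome kinase, changed by 1.78 and 1.85, and Melk, a kinase of dividing cells, by 1.67 and 1.58.

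The chromosomal passenger complex, which corrects faulty attachments and later moves to the midzone, rose in all 4 of its genes. Aurkb, its kinase, stood at 11, 11.6 and 12 CPM in SPF ethanol, 40.3, 35.6 and 37.4 in SPF MC903, 9.95, 12.7 and 8.86 in GF ethanol, and 35.3, 37.1 and 33.4 in GF MC903 libraries. Housing groups overlapped, and Aurkb changed by 1.71 and 1.75 in log2. Birc5, survivin, which places the complex on the centromere, stood at 9.19, 9.24 and 11.2 CPM in SPF ethanol, 60.6, 58.8 and 45.8 in SPF MC903, 10.6, 14.6 and 10.4 in GF ethanol, and 85.7, 80 and 86.9 in GF MC903 libraries. Every GF MC903 library lay above every SPF MC903 library. Birc5 changed by 2.48 (SE 0.15, adjusted p = 1.6e-08) and 2.83 (SE 0.15, adjusted p = 1.6e-08), the 3rd highest change in GF skin. Cdca8, borealin, changed by 2.49 and 2.31, and Incenp, the scaffold, by 1.66 and 1.76.

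The spindle checkpoint genes rose by less, with median log2 changes of 1.21 and 1.32. Bub1, the kinase that recruits other checkpoint proteins to kinetochores, stood at 4.14, 3.26 and 4.67 CPM in SPF ethanol, 13.6, 8.82 and 11.3 in SPF MC903, 4.09, 3.87 and 3.28 in GF ethanol, and 10, 7.7 and 9.4 in GF MC903 libraries. The MC903 libraries lay above the ethanol libraries in each housing, and the housing groups overlapped. Bub1 changed by 1.48 (SE 0.18) and 1.27 (SE 0.18). Mad2l1, MAD2, which holds back the anaphase-promoting complex, stood at 10.3, 9.05 and 8.58 CPM in SPF ethanol, 25.8, 21.3 and 23.9 in SPF MC903, 8.3, 9.78 and 8.92 in GF ethanol, and 22.9, 24.5 and 22.5 in GF MC903 libraries. It changed by 1.35 and 1.37, and the groups of the same treatment overlapped. Gm42430 matches Mad2l1 at 95.374% identity over 454 bases. Ttk, the MPS1 kinase at the head of the checkpoint, was the least changed gene of the group in GF skin. It stood at 9.19, 9.3 and 13.1 CPM in SPF ethanol, 16.2, 14.3 and 16.2 in SPF MC903, 10.5, 10.4 and 9.32 in GF ethanol, and 11.3, 15.1 and 15.6 in GF MC903 libraries. Within each housing the vehicle and treated libraries were close and did not overlap, while SPF ethanol 3 lay above GF MC903 1. Ttk changed by 0.56 (SE 0.15, adjusted p = 0.0047) and 0.47 (SE 0.15, adjusted p = 0.015). The GF call was lost without GF MC903 4, GF ethanol 5 or GF MC903 5, with adjusted p up to 0.062, and on library totals the changes were -0.01 and -0.04. Bub1b, BubR1, changed by 1.08 and 1.40.

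All 7 centromere and kinetochore genes rose at least 2-fold in both housings, with medians of 1.93 and 2.08. Cenpa, the histone that marks the centromere, stood at 9.99, 11.4 and 7.84 CPM in SPF ethanol, 55.8, 51.4 and 42.5 in SPF MC903, 10.2, 12.9 and 10.5 in GF ethanol, and 62.7, 63.8 and 60.8 in GF MC903 libraries. The GF MC903 libraries lay highest, clear of the SPF MC903 libraries. Cenpa changed by 2.36 (SE 0.14) and 2.48 (SE 0.14). Cenpe, a kinetochore motor, stood at 8.3, 7.49 and 7.69 CPM in SPF ethanol, 32.8, 24.4 and 27.9 in SPF MC903, 5.81, 7.63 and 5.12 in GF ethanol, and 25.2, 26.8 and 30 in GF MC903 libraries. Its housing groups overlapped, and it changed by 1.86 and 2.14. The NDC80 complex grips microtubule ends, and its 4 subunits changed by 1.63 to 2.23 in SPF and 1.75 to 2.12 in GF skin. Ndc80 stood at 4.43, 6.04 and 5.2 CPM in SPF ethanol, 15.4, 15.6 and 17.4 in SPF MC903, 5.21, 5.58 and 3.8 in GF ethanol, and 15, 16.5 and 17.6 in GF MC903 libraries. Housing groups overlapped for Ndc80. Nuf2 stood at 4.77, 4.17 and 4.74 CPM in SPF ethanol, 22.4, 22.3 and 19.4 in SPF MC903, 5.79, 6.72 and 4.89 in GF ethanol, and 25.5, 22.7 and 25.2 in GF MC903 libraries. Spc25 stood at 4.2, 4.06 and 4.65 CPM in SPF ethanol, 16.6, 18 and 14.7 in SPF MC903, 5.19, 6.34 and 3.97 in GF ethanol, and 22.1, 22.3 and 20.6 in GF MC903 libraries. For both Nuf2 and Spc25 the GF MC903 libraries lay above the SPF MC903 libraries. Spc24 changed by 2.02 and 2.12, and Cenpf, a large protein of the outer kinetochore, by 1.34 and 1.38.

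The 4 genes of anaphase onset divided. Ube2c, the conjugating enzyme of the anaphase-promoting complex, had the highest log2 change of the 51 in each housing. It stood at 8.02, 8.23 and 8.56 CPM in SPF ethanol, 88.2, 85.8 and 67.2 in SPF MC903, 10, 13.6 and 8.44 in GF ethanol, and 77.8, 80.7 and 84.6 in GF MC903 libraries. The housing groups overlapped with either treatment. Ube2c changed by 3.28 (SE 0.16, adjusted p = 2.8e-09) and 2.92 (SE 0.16, adjusted p = 1.8e-08), and 22.8% of its exonic bases lie opposite Tnnc2. Cdc20 stood at 22.2, 23.7 and 20.6 CPM in SPF ethanol, 119, 96.2 and 85.8 in SPF MC903, 21.1, 31.6 and 20.6 in GF ethanol, and 126, 117 and 124 in GF MC903 libraries. It changed by 2.18 and 2.32. The inhibitor securin and the protease separase showed other patterns. Pttg1, securin, which holds separase inactive, stood at 21, 18.9 and 17.3 CPM in SPF ethanol, 19.5, 20 and 17.6 in SPF MC903, 23.4, 26.8 and 23.2 in GF ethanol, and 35.5, 33.6 and 34.3 in GF MC903 libraries. Espl1, separase, which cuts cohesin, stood at 31.8, 25.1 and 29.6 CPM in SPF ethanol, 32.2, 27.4 and 25.9 in SPF MC903, 23.4, 24.8 and 22.7 in GF ethanol, and 36.8, 34.9 and 36.9 in GF MC903 libraries. In SPF skin the treatment groups of both genes overlapped, and in GF skin they did not. Pttg1 changed by 0.00 (SE 0.09, adjusted p = 1) in SPF and 0.49 (SE 0.09, adjusted p = 0.00031) in GF skin. Espl1 changed by -0.02 (SE 0.10, adjusted p = 0.89) in SPF and 0.61 (SE 0.10, adjusted p = 0.00014) in GF skin. On library totals both were lower in SPF skin, Pttg1 by -0.58 (adjusted p = 4.9e-05) and Espl1 by -0.59 (adjusted p = 0.00022), and neither passed in GF skin, at -0.02 and 0.10.

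**Figure D3:**
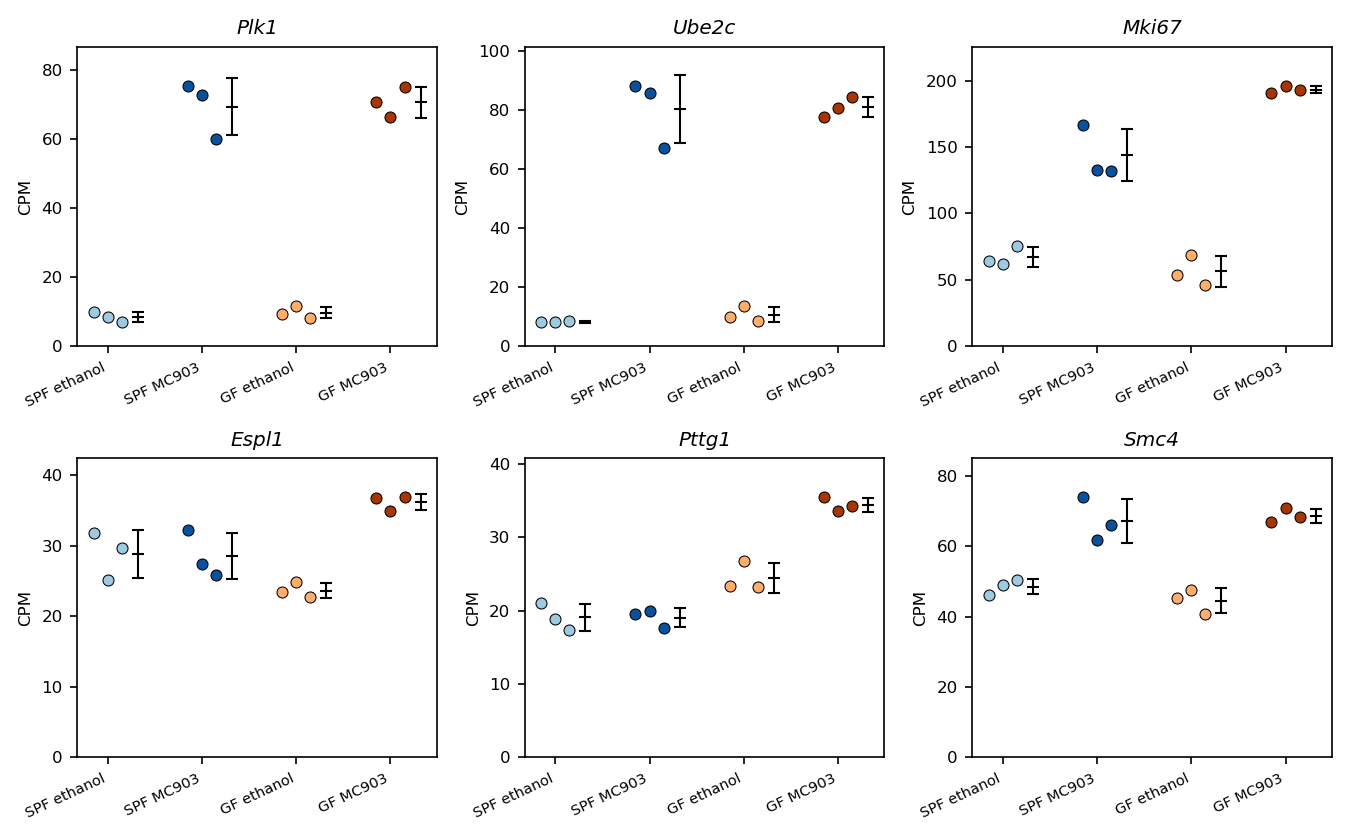
CPM of 6 members in the 12 libraries (y axes, linear from 0) by group (x axis), with points for libraries and bars for the group mean ± SD. Plk1 and Ube2c separate by treatment in both housings, whereas Pttg1 and Espl1 are highest in the 3 GF MC903 libraries.

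The mitotic kinesins, motors of spindle and midzone, rose in all 7 cases, with medians of 1.45 and 1.55. Kif11 stood at 13.3, 14.4 and 19 CPM in SPF ethanol, 44.3, 41.7 and 41.3 in SPF MC903, 14.1, 16.6 and 11.7 in GF ethanol, and 43.5, 39.9 and 40.9 in GF MC903 libraries. Its housing groups overlapped, and it changed by 1.45 and 1.55 in log2. Kif20a, which carries the passenger complex to the midzone, stood at 15.8, 16.6 and 16 CPM in SPF ethanol, 46.7, 39.8 and 45.1 in SPF MC903, 13.3, 15.3 and 11.8 in GF ethanol, and 35.2, 33.9 and 34 in GF MC903 libraries. GF libraries lay below SPF libraries with both treatments. Kif20a changed by 1.44 and 1.35, and 29.3% of its exonic bases lie opposite Cdc23. Kif22, a chromosome-arm motor, stood at 9, 8.37 and 8.1 CPM in SPF ethanol, 36.6, 34.3 and 29.7 in SPF MC903, 8.66, 13.6 and 9.38 in GF ethanol, and 51.4, 50 and 49.9 in GF MC903 libraries. Kif15, a motor that backs up Kif11, stood at 5.7, 4.27 and 6.21 CPM in SPF ethanol, 16.5, 11.5 and 11.9 in SPF MC903, 5.49, 6.36 and 3.82 in GF ethanol, and 18.8, 18.5 and 20.4 in GF MC903 libraries. For Kif22 and Kif15 the GF MC903 libraries lay above the SPF MC903 libraries. Kif2c, a microtubule depolymerase, changed by 2.11 and 2.30, Kif4 by 1.61 and 1.43, and Kif23, of the midzone, by 0.89 and 0.91. Of the exonic bases of Kif4, 15.1% lie opposite Pdzd11.

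Spindle assembly genes had medians of 1.74 in both housings. Tpx2, which activates Aurora A on the spindle, stood at 13.6, 11.4 and 13.1 CPM in SPF ethanol, 72.8, 74.3 and 65 in SPF MC903, 14, 18.4 and 11.4 in GF ethanol, and 69.8, 62.3 and 66.1 in GF MC903 libraries. Its housing groups overlapped, and it changed by 2.48 and 2.18. Prc1, which bundles midzone microtubules, stood at 23.2, 30.9 and 25.8 CPM in SPF ethanol, 76.8, 78.8 and 72.7 in SPF MC903, 24.6, 30.5 and 21.4 in GF ethanol, and 72.9, 76 and 76.6 in GF MC903 libraries. Its housing groups overlapped as well, with changes of 1.51 and 1.56, and 11.1% of its exonic bases lie opposite Rccd1. Hmmr changed by 1.96 and 1.91, and Nusap1 by 0.94 and 1.09, a call that library totals ended in SPF skin at 0.37 (adjusted p = 0.089).

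The cytokinesis genes had the lowest medians of the roles, 0.87 in SPF and 0.74 in GF skin. Anln, anillin, a scaffold of the contractile ring, stood at 29.1, 30.6 and 31.5 CPM in SPF ethanol, 58.5, 44.3 and 53.9 in SPF MC903, 24.5, 29.8 and 24.9 in GF ethanol, and 43.4, 46.7 and 41.7 in GF MC903 libraries. Anln changed by 0.78 (SE 0.11, adjusted p = 2.5e-05) and 0.74 (SE 0.11, adjusted p = 5.5e-05). Treated libraries were above vehicle libraries without overlap. Ect2, the exchange factor that switches on RhoA for the ring, stood at 6.91, 7.71 and 9.02 CPM in SPF ethanol, 16, 10.3 and 17 in SPF MC903, 6.18, 6.76 and 5.63 in GF ethanol, and 10.3, 10.5 and 8.28 in GF MC903 libraries. It changed by 0.87 (SE 0.18) and 0.65 (SE 0.18), and on library totals neither Anln nor Ect2 passed in either housing. Racgap1, its partner at the midzone, rose by 1.65 and 1.66.

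The condensin genes, which compact chromosomes, had medians of 1.17 and 1.51. Ncapg stood at 6.8, 6.33 and 5.94 CPM in SPF ethanol, 23, 18.6 and 18 in SPF MC903, 5.69, 6.57 and 4.41 in GF ethanol, and 16.2, 18.6 and 16.9 in GF MC903 libraries. Ncapg changed by 1.65 and 1.63, and 13.4% of its exonic bases lie opposite Lcorl. Smc4, a core ATPase shared by both condensins, stood at 46.1, 48.9 and 50.5 CPM in SPF ethanol, 74, 61.8 and 65.9 in SPF MC903, 45.2, 47.6 and 40.8 in GF ethanol, and 66.9, 70.8 and 68.4 in GF MC903 libraries. It already had one of the higher levels with ethanol and was among the least changed, by 0.47 (SE 0.08, adjusted p = 0.00017) and 0.63 (SE 0.08, adjusted p = 2e-05). On library totals Smc4 was at -0.10 in SPF and 0.11 in GF skin and passed in neither. Ncaph changed by 1.68 in each housing, Ncapd2 by 1.17 and 1.51, and Smc2 by 1.08 and 1.

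Compared per length, as FPKM, the order of members changed with treatment. In SPF ethanol skin Pttg1 was highest at 27.1 FPKM ± 2.29, ahead of Cdc20 at 14.9 ± 0.922 (SD, n = 3). In SPF MC903 skin Ube2c was highest at 69.7 FPKM ± 9.41, ahead of Cdc20 at 45.5 ± 7.92 and Birc5 at 41.4 ± 4.71. GF skin had Pttg1 highest with ethanol, at 33.9 FPKM ± 2.81, and Ube2c with MC903, at 70.5 ± 3.3. Bub1 was at or near the bottom of each group, from 0.995 FPKM ± 0.119 in GF ethanol to 2.09 ± 0.476 in SPF MC903 skin.

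**Figure D4:**
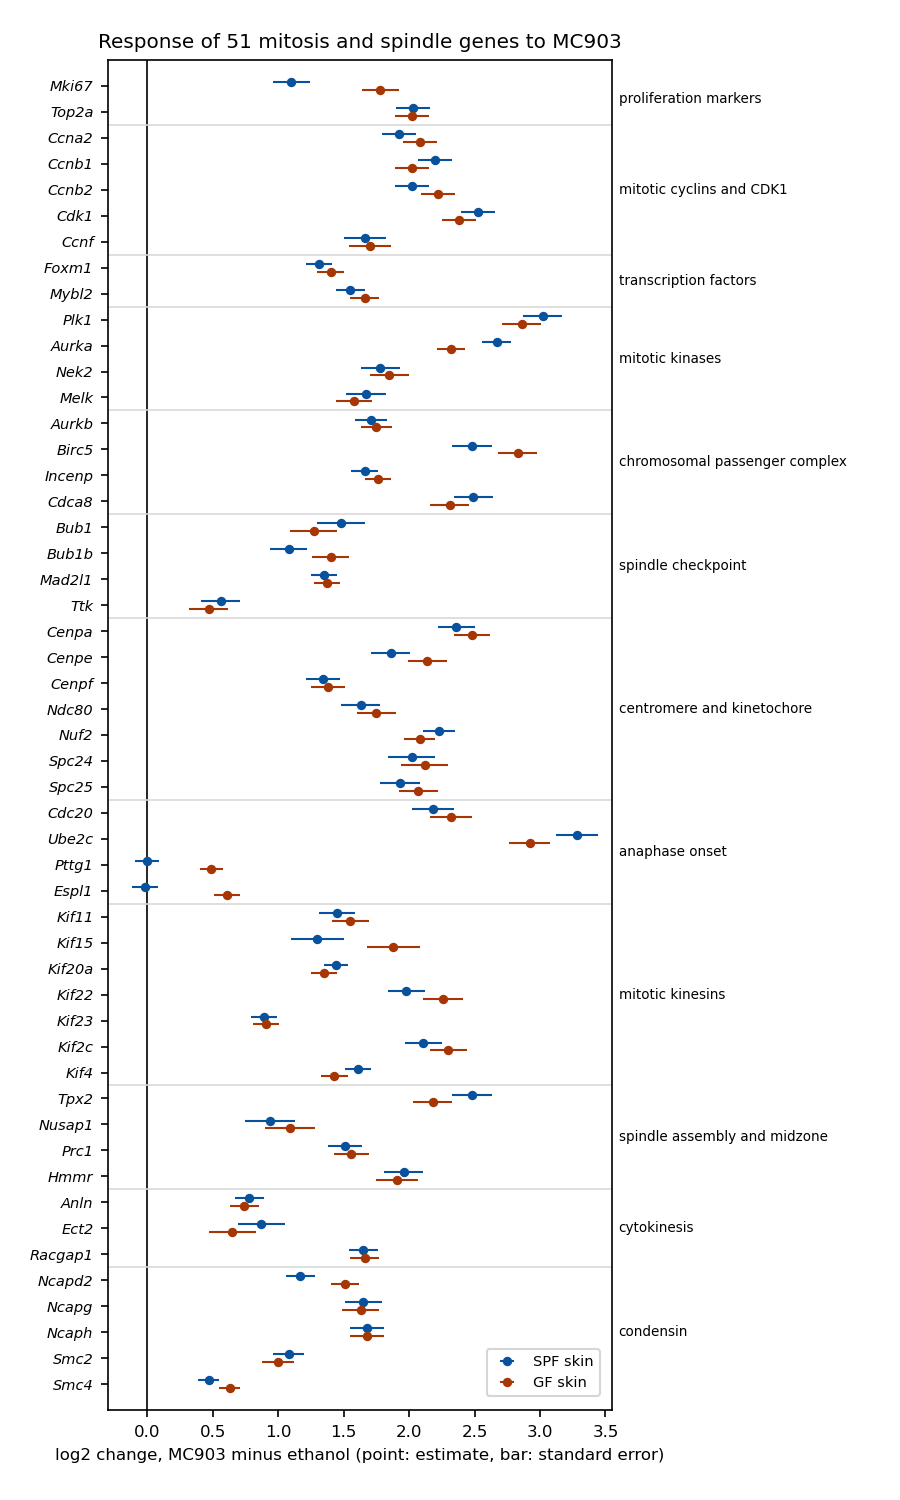
Log2 change with MC903 in SPF skin and in GF skin for each member, arranged by role, with standard errors as bars. Changes run from -0.02 to 3.28 in SPF skin and from 0.47 to 2.92 in GF skin, and Mki67, Espl1 and Pttg1 are the members whose changes differed between housings by the test.

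The next comparison asked whether the response to MC903 differed between GF and SPF skin, as a difference of the log2 changes. Passed by 3 members, all with the larger response in GF skin, this test called 5.88% of the group, where 7.75% of all tested genes were higher and 9.26% lower. In either direction the test called 17% of all tested genes, so members were called no more often than genes at large. The median difference over members was 0.05, with 31 above and 20 below 0, and the median absolute difference was 0.14 beside a median SE of 0.19. At an unadjusted p under 0.05 there were 4 higher and 1 lower. Mki67 (chr7:135689784-135716450) differed by 0.68 (SE 0.19, adjusted p = 0.029), Espl1 (chr15:102296254-102324357) by 0.63 (SE 0.14, adjusted p = 0.01) and Pttg1 (chr11:43420244-43427463) by 0.49 (SE 0.13, adjusted p = 0.019). Coordinates of these genes are from RefSeq on GRCm38.p6. The Espl1 and Pttg1 calls were kept without any 1 library, with adjusted p of 0.0038 to 0.029 and of 0.012 to 0.049. The Mki67 call was lost without any 1 of 8 libraries, SPF ethanol 3, SPF MC903 2 or 3, GF ethanol 1 or 5, and GF MC903 1, 4 or 5, with adjusted p up to 0.068. The largest differences in the other direction were those of Ube2c at -0.36, Aurka at -0.35 and Tpx2 at -0.30, and none of them passed. Kif15, at 0.58 (SE 0.27, adjusted p = 0.18), did not pass either. The median difference over members became 0.19 without GF ethanol 4, with 4 members called higher, and -0.05 without GF ethanol 5, with 2 called. It became 0.12 without SPF MC903 1, with 4 called, and 0.01 without SPF MC903 3, with 2 called. The sign of this median thus turned on single libraries.

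With ethanol alone, 1 member was higher in GF than in SPF skin and 1 lower, 1.96% of members in each direction, where 11.6% of all tested genes were higher and 10.3% lower. Pttg1 was higher by 0.36 (SE 0.09, adjusted p = 0.014) and Mybl2 lower by -0.41 (SE 0.11, adjusted p = 0.02), and for both genes the 3 GF libraries lay clear of the 3 SPF libraries. Groups lay clear in this way for 5.88% of members that were higher and 7.84% that were lower. Over all tested genes these shares were 21.8% and 22.1%. The Pttg1 call was lost without SPF ethanol 3 or GF ethanol 4, and the Mybl2 call without SPF ethanol 3, GF ethanol 4 or GF ethanol 5. Without GF ethanol 5, 6 members were higher and 0 lower, and without GF ethanol 4, 0 were higher and 3 lower, so these counts turned on single libraries. Ube2c at 0.37 and Nuf2 at 0.35 were also among the highest differences, and Ect2 at -0.35 and Cenpe at -0.34 among the lowest, without passing.

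With MC903, 7 members were higher in GF skin (13.7%) and 4 lower (7.84%), where 20.8% of all tested genes were higher and 20.9% lower. Higher were Pttg1 by 0.85 (SE 0.09, adjusted p = 1.9e-05), Birc5 by 0.61 (SE 0.14, adjusted p = 0.0039), Kif22 by 0.59 (SE 0.14, adjusted p = 0.0047), Kif15 by 0.53, Mki67 by 0.42, Spc25 by 0.40 and Espl1 by 0.34. Lower were Ect2 by -0.58 (SE 0.18, adjusted p = 0.021), Ccnb1 by -0.38 (SE 0.13, adjusted p = 0.029), Kif20a by -0.35 (SE 0.09, adjusted p = 0.0092) and Mybl2 by -0.30 (SE 0.11, adjusted p = 0.036). Groups did not overlap for 13 members that were higher (25.5%) and 4 that were lower, where 25.4% and 25.2% of tested genes did so. Ect2 is an exception among the calls, since SPF MC903 2, at 10.3 CPM, lay within the GF range. The Pttg1 difference kept to 0.80 to 0.89 without any 1 library. Calls lost without at least 1 library were those of Kif15 (7 libraries), Spc25 (5), Mki67 and Mybl2 (4 each), Ccnb1 and Ect2 (3 each) and Espl1 (SPF MC903 3). The number higher ran from 3 without SPF MC903 3 to 10 without SPF MC903 1, and the number lower from 1 to 5. The 2 housing comparisons share no library, and the sign of the housing difference was the same in both for 38 of 51 members (74.5%), beside 66.6% of all tested genes. With ethanol the members' median difference was -0.05, and it became -0.12 without GF ethanol 4 and 0.13 without GF ethanol 5. The count of shared signs was not repeated without these libraries.

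**Figure D5:**
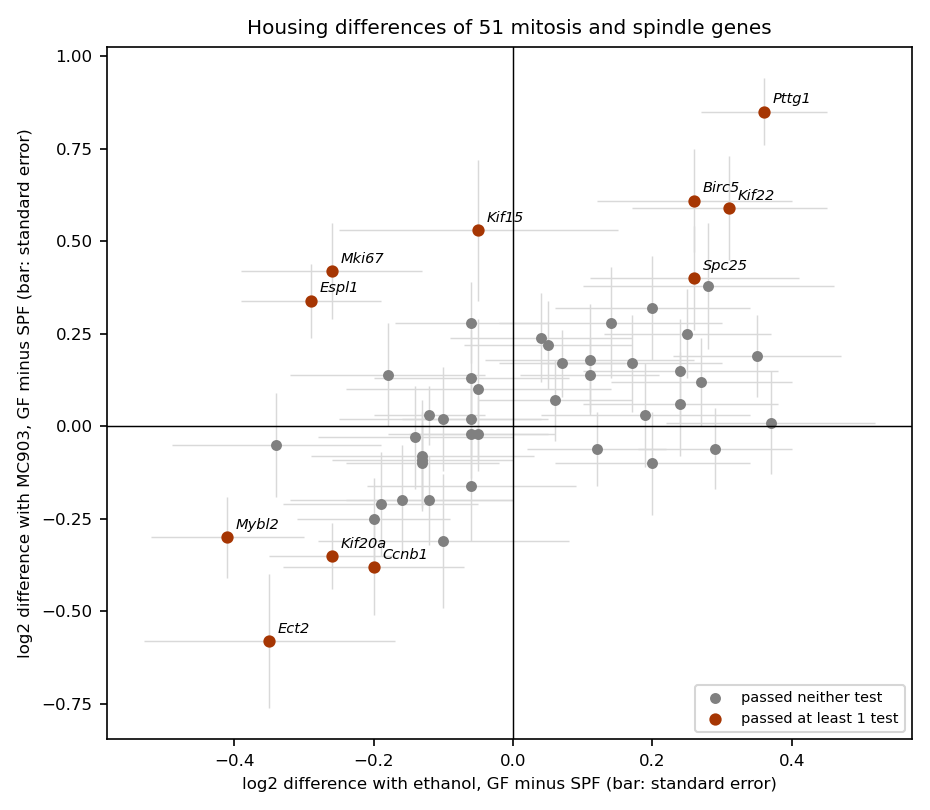
Log2 difference between GF and SPF skin with ethanol (x axis) and with MC903 (y axis) for each member, with standard errors as bars and members that passed at least 1 test named. Pttg1 lies at the top right, at 0.36 and 0.85, and Mybl2 at the lower left, at -0.41 and -0.30.

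Most other genes of mitosis and DNA replication were higher with MC903 as well, in lists that were also chosen with earlier results of these data known. All tested genes give the background for these counts, with 35% higher and 38.8% lower in SPF skin and 33.4% higher and 35.1% lower in GF skin. Of 85 further mitosis genes, 69 (81.2%) were higher and 2 (2.35%) lower with MC903 in SPF skin, and 75 (88.2%) higher and 2 (2.35%) lower in GF skin, with medians of 1.05 and 1.13. Depdc1b led them at 3.11 (SE 0.18) and 2.93 (SE 0.18). Wee1, the kinase that holds Cdk1 inactive, fell by 1.24 and 0.81, and Ncapd3, a condensin II subunit, fell by 0.42 and 0.33. Of 47 DNA replication and S phase genes, 41 (87.2%) were higher and 1 (2.13%) lower in SPF skin and 43 (91.5%) higher and 0 lower in GF skin, with medians of 0.73 and 0.92, below those of the mitosis genes. With MC903, 16 of the 47 (34%) were higher in GF than in SPF skin and 2 (4.26%) lower, beside 20.8% and 20.9% of all tested genes. Of 14 G1 genes, 8 (57.1%) were higher and 1 (7.14%) lower in SPF skin and 11 (78.6%) higher and 1 (7.14%) lower in GF skin, with E2f7, a repressor of E2F targets, at 4.64 and 3.73 and Ccnd2, cyclin D2, at -1.39 and -1.50. The E2f7 response differed between housings by -0.92 (SE 0.21, adjusted p = 0.011). Of 21 genes that restrain the cycle, 11 (52.4%) were higher and 5 (23.8%) lower in SPF skin and 13 (61.9%) and 5 (23.8%) in GF skin. Among these, Gadd45a, a stress-response brake at the entry to mitosis, rose by 2.79 and 2.09, and Rbl2, the p130 protein of resting cells, fell by 1.38 and 1.08.

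Markers of keratinocytes, hair and other skin cells, detected in the tissue labelled skin, moved along with the division genes in some lists, and their part in the rises was not tested. Summed CPM of 7 basal keratinocyte markers was 11400 to 12000 in SPF ethanol, 28900 to 32900 in SPF MC903, 13300 to 15200 in GF ethanol and 30900 to 31200 in GF MC903 libraries. Of these 7 markers, 3 were higher and 3 lower in SPF skin and 2 higher and 2 lower in GF skin. Krt14, keratin 14, had the largest rises of the list, 2.51 and 1.90. The lowest changes were -1.46 and -0.98, and the medians 0.27 and -0.03. The mean log2 level of the 7 went from 9.84 to 9.87 with ethanol to 9.82 to 10.07 with MC903 in SPF skin. In GF skin it went from 9.92 to 10 with ethanol to 10.09 to 10.13 with MC903. The higher sums therefore do not show a rise across this list. Summed CPM of 9 hair matrix and hair shaft markers was 64.7 to 67.8, 2380 to 3860, 77.7 to 83.3 and 1200 to 1230 in the same order, with 5 markers higher and 1 lower in each housing. Log2 changes of these 9 ran from -1.04 to 7.96 in SPF and from -1.15 to 6.72 in GF skin, with medians of 2 and 1.04. The hair sums therefore do not give the size of a rise across this list. Leukocyte markers, 10 in number, summed to 399 to 473, 435 to 509, 472 to 513 and 514 to 550 CPM, with 5 markers higher and 4 lower in SPF skin and 4 higher and 3 lower in GF skin. Of 5 suprabasal keratinocyte markers, 3 were higher and 2 lower in SPF skin and 4 and 1 in GF skin. All 6 fibroblast markers fell in both housings, from 9940 to 11400 down to 5140 to 6550 CPM in SPF skin and from 7920 to 9610 down to 4770 to 6040 CPM in GF skin. Of 5 endothelial markers 0 were higher and 3 lower in SPF and 0 and 4 in GF skin, of 6 sebaceous gland markers 1 and 4 and then 2 and 3, and of 4 melanocyte markers 1 and 0 and then 2 and 1. No marker of these lists was at 0 over a whole group.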

How the data were processed

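Skin RNA went through an RNeasy Fibrous Tissue kit and a TruSeq preparation onto a HiSeq4000, per the labels' protocols. Tools named in the submitters' processing notes are HISAT2 2.1.0, StringTie 1.3.4d, Trimmomatic and bcl2fastq 2.20.0, and the build is mm10. Strand use and the annotation were not given in the sources at hand, and reads that overlapping genes share may be counted for either. The authors deposited, for every gene in every library, an FPKM value and an estimated count, per the file headers. Counts were whole numbers, so rounding changed none.

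Genes were kept by filterByExpr on the groups, at a count of 10 and a total of 15 or more, and tested with edgeR 4.0.16 (R 4.3.3, quasi-likelihood test, TMM scaling, no replicate block), all 12 libraries and 4 groups in 1 fit, with Benjamini-Hochberg adjustment over 16466 genes. The 5 comparisons were the MC903 response in each housing, their difference, and GF minus SPF with each treatment. SE is the log2 change over the square root of F. Common dispersion was 0.022. Alternatives were DESeq2 1.42.0, limma 3.58.1 (voom, and log2(FPKM + 0.1) of the deposited FPKM), other scalings, no filter, a replicate block and leaving out each library. Chi-square per degree of freedom between replicates was 17.7 to 45.7, above sampling noise, and each library counted as 1 replicate. On simulated data for the SPF response with 16209 genes, 99% of genes changed by log2 1 and 100% of those changed by log2 2 were recovered, and 5.69% of calls were false. That simulation gave every gene the same dispersion, 0.022, and raised 200 genes in SPF MC903 libraries alone. The data changed far more broadly and in both directions, so the simulation cannot show how calls hold under the scaling used here. Near copies were searched with BLAST+ 2.17.0 (at least 300 bases at 95% identity), and exon overlaps taken from GENCODE on GRCm38.

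Members and gene lists were chosen with earlier results of these data known. Values in every library are given for the 27 genes that lead their role, the 3 highest and lowest in each comparison and those passing a test between housings. Promoters are printed for the first gene of a role that holds both motifs outside exons.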

Additional observations from a re-analysis of the deposited data

Results flagged for a closer look

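The response to MC903 differed between GF and SPF skin, by the test of the difference itself, for 3 of the 51 mitosis and spindle genes (5.88%), where it differed for 17% of all tested genes. The log2 difference, GF minus SPF, was 0.68 for Mki67, 0.63 for Espl1 and 0.49 for Pttg1. Mki67 rose in both housings, by 1.10 in SPF and 1.78 in GF skin, and the call on its difference was lost without any 1 of 8 of the 12 libraries, with adjusted p from edgeR up to 0.068. The calls on Espl1 and Pttg1 were kept without any 1 library. Espl1 and Pttg1 passed the test of the MC903 response in GF skin and not in SPF skin. On library totals without TMM scaling this turned: both were lower in SPF skin, Espl1 at -0.59 (adjusted p = 0.00022) and Pttg1 at -0.58 (adjusted p = 4.9e-05), and neither passed in GF skin, at 0.10 and -0.02. Each of the 3 was higher in GF than in SPF skin with MC903, as were 20.8% of all tested genes. For each the 3 GF MC903 libraries lay above the 3 SPF MC903 libraries, as for 25.4% of all tested genes. This comparison is a part of the difference tested, so it adds no separate evidence.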

How the results depend on the processing

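The 3 calls on the difference of responses were made under DESeq2, voom, library totals, RLE size factors, no filter, log2(FPKM + 0.1) and the replicate block, with 3 members higher and 0 lower each time. Library totals and FPKM, which TMM does not rescale, each gave 2 members lower in SPF skin, Espl1 and Pttg1, where TMM gave 0. Over all genes they gave 3127 and 3186 higher and 10106 and 10145 lower in SPF skin, and 2795 and 2841 higher and 9697 and 9837 lower in GF skin. Reversed were Ttk in SPF skin (-0.01 on totals), Smc4 in SPF skin (-0.10 on totals and on FPKM), Ttk in GF skin (-0.04 on both) and Pttg1 in GF skin (-0.02 on totals), and the cause was not tested beyond the shift of all genes. With ethanol, members higher in GF skin numbered 3 by DESeq2 and 2 on FPKM, and members lower 2 by DESeq2, voom and FPKM and 3 on totals. With MC903, members higher and lower numbered 7 and 5 by DESeq2, 9 and 4 by voom and 8 and 3 on totals. They numbered 6 and 4 with no filter and 7 and 3 on FPKM. The Kif15 call was lost with no filter and on FPKM, and the Mybl2 call on totals and FPKM. Gained were Cenpa by voom, Ncapd2 by voom, totals and FPKM, and Anln, as lower, by DESeq2. Leaving out 1 library at a time, members higher in GF skin with ethanol ran from 0 to 6 and lower from 0 to 3, and with MC903 from 3 to 10 and from 1 to 5. Over all genes the ethanol comparison ran from 768 to 2121 higher and from 707 to 1860 lower. With the replicate block, members higher numbered 49 in SPF skin, 51 in GF skin and 3 for the difference. Deviations of same-numbered libraries correlated at 0.01, 0.07 and 0.15 in SPF and 0.02, -0.04 and -0.01 in GF skin, which does not show pairing and does not settle whether same-numbered libraries came from 1 mouse, and the housing comparisons share label 1 alone. With 3 libraries a group, differences near the median SE of 0.13 between housings were not detectable, and some well above it did not pass. Ube2c at 0.37 and Cenpe at -0.34 with ethanol are examples. A member that was not called is therefore not shown to be alike in the 2 housings.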
